A study of Mus musculus with 48 samples.

Results

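The chemokine receptor genes Cx3cr1, Cxcr3, Cxcr4, Cxcr6 and Ccr2 were followed through RNA-seq read counts of splenic natural killer (NK) cells of the mouse. They are 5 of the 24328 gene symbols counted, taken by name as chemokine receptors of NK cells. All 5 passed the filter on low counts in each experiment. The libraries are 48 in 14 groups. In the conditional experiment, cKO mice (Bach2flox/flox Ncr1Cre) carry loxP-flanked alleles of Bach2, a gene for a transcriptional repressor, and their controls (cWT) carry the same Ncr1Cre, which drives Cre in cells that express the NK receptor gene Ncr1. Both genotypes were sorted as unfractionated NK cells and as the stages iNK, mNK1 and mNK2, and each such group holds 3 libraries. In the chimera experiment, Bach2-KO and WT NK cells were sorted from the spleens of hosts reconstituted with about equal mixtures of KO and WT bone marrow, with 4 libraries per genotype. In the third experiment, spleens of WT mice gave 4 libraries for each of iNK, mNK1 and the mNK2 cells without and with KLRG1, a receptor of mature NK cells. No treatment, age, surface gates, number of animals per library or number of Cre copies is given in the sources used here.

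Chemokine receptors are seven-helix membrane proteins that couple to inhibitory G proteins and turn a cell towards the source of a chemokine. CX3CR1 binds fractalkine, which is held on endothelium, and marks late NK cells. CXCR3 binds interferon-induced chemokines of inflamed tissue, CXCR4 binds CXCL12 of the bone marrow stroma, CXCR6 binds CXCL16 and is typical of liver-resident and innate-like T and NK-lineage cells, and CCR2 binds monocyte chemoattractant proteins and is also abundant on monocytes.

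The promoters of Cx3cr1, which was highest at the last stage, and of Cxcr6, which was highest at the first, are shown with that of Cxcr3, because these 3 of the 5 receptor promoters hold the letters ACCACA, the reverse complement of the core TGTGGT bound by RUNX factors. Each run gives the 250 bases before the start site in RefSeq on GRCm38.p6, read along the gene's strand, with the RUNX letters in capitals. Cx3cr1 lies at chr9:120068297-120068546 on the minus strand, Cxcr6 at chr9:123806227-123806476 on the plus strand and Cxcr3 at chrX:101734148-101734397 on the minus strand.
Cx3cr1: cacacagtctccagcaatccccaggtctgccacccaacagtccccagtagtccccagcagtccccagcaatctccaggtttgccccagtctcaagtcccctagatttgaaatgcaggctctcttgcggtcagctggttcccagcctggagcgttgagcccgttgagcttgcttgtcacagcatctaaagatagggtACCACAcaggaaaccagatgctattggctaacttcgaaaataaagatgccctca
Cxcr6: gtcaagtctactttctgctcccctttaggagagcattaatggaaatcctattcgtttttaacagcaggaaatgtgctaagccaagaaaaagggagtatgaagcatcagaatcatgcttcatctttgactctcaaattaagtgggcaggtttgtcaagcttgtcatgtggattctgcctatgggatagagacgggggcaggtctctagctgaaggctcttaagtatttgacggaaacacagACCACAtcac
Cxcr3: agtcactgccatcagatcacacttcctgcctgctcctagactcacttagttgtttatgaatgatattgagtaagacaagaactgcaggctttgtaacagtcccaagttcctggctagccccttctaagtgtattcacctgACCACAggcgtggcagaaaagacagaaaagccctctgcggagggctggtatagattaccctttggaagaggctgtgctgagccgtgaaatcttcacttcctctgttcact
The RUNX letters begin 54 bases before the start of Cx3cr1, 10 bases before that of Cxcr6 and 110 bases before that of Cxcr3. On either strand they occur in 14.05% of the 32851 RefSeq promoter windows of this length, and the motif was added after these promoters had been read. The letters TGANTCA, the core shared by BACH and AP-1 factors, are in none of the 5 receptor windows and in 6.749% of all windows. GGTGTGA, a T-box motif, and CTTTGAT, a TCF/LEF motif, are likewise in none of the 5, against 3.333% and 3.205% of all windows. These are letter matches in short windows and not measured sites.

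Conditional libraries held 13650636 to 21029172 counts, chimera libraries 8557018 to 12927472 and WT subset libraries 8973777 to 11924274. Levels are CPM, a gene's share of the library's total scaled to 1e6 counts, and a floor of 3 counts stands for 0.143 to 0.351 CPM. Rn45s, a ribosomal RNA precursor gene, made up 18.6% to 29.1% of the counts in WT subsets and chimeras but at most 0.36% in conditional libraries, so levels are not compared across experiments. NK core markers summed to at least 10048.5 CPM in every library. Levels are also not compared between genes, since counts grow with transcript length. Bach2 stood at 1.36, 2.799, 2.57 and 1.3 CPM in the chimera KO libraries, against 14.03, 13.6, 19.4 and 17.2 CPM in the chimera WT libraries. In the libraries labelled cKO, Bach2 was higher than in those labelled cWT without overlap in each stage, at 17.4 to 27.6 CPM against 11.7 to 16.9 CPM in iNK, 19.6 to 28.3 against 9.59 to 15.4 CPM in mNK1 and 13.2 to 23.5 against 10.4 to 11.2 CPM in mNK2. In the NK fraction the ranges overlapped, at 19.97 to 23.8 CPM in cKO and 10.5 to 20.2 CPM in cWT. The part of the gene that Cre removes is not given in the sources used here, so these counts are no check of the labels, and every direction between cKO and cWT rests on the labels. The conditional controls stand apart in Ncr1 itself. Ncr1 was at 537 to 2139 CPM in the 12 cKO libraries. In cWT it was at 234, 211 and 886 CPM in the NK fraction, 78.5, 62.3 and 373 CPM in iNK, 151, 171 and 810 CPM in mNK1, and 285, 257 and 1080 CPM in mNK2. Replicates 1 and 2 were thus the low ones in every cWT fraction, and in each fraction every cKO library was above every cWT library. The difference in Ncr1 and the Bach2 genotype cannot be told apart in this experiment, so each called receptor difference between cKO and cWT is also given against cWT replicate 3 alone and against cWT replicates 1 and 2 alone. With cWT replicate 3 alone each control arm is 1 library, and the spread comes from the cKO libraries, so the lone control is assumed to vary like them. These fits cannot separate Ncr1 from the genotype, since cWT replicate 3 was also below every cKO library of its fraction. A call lost with fewer control libraries does not show that a difference is absent.

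**Figure D1:**
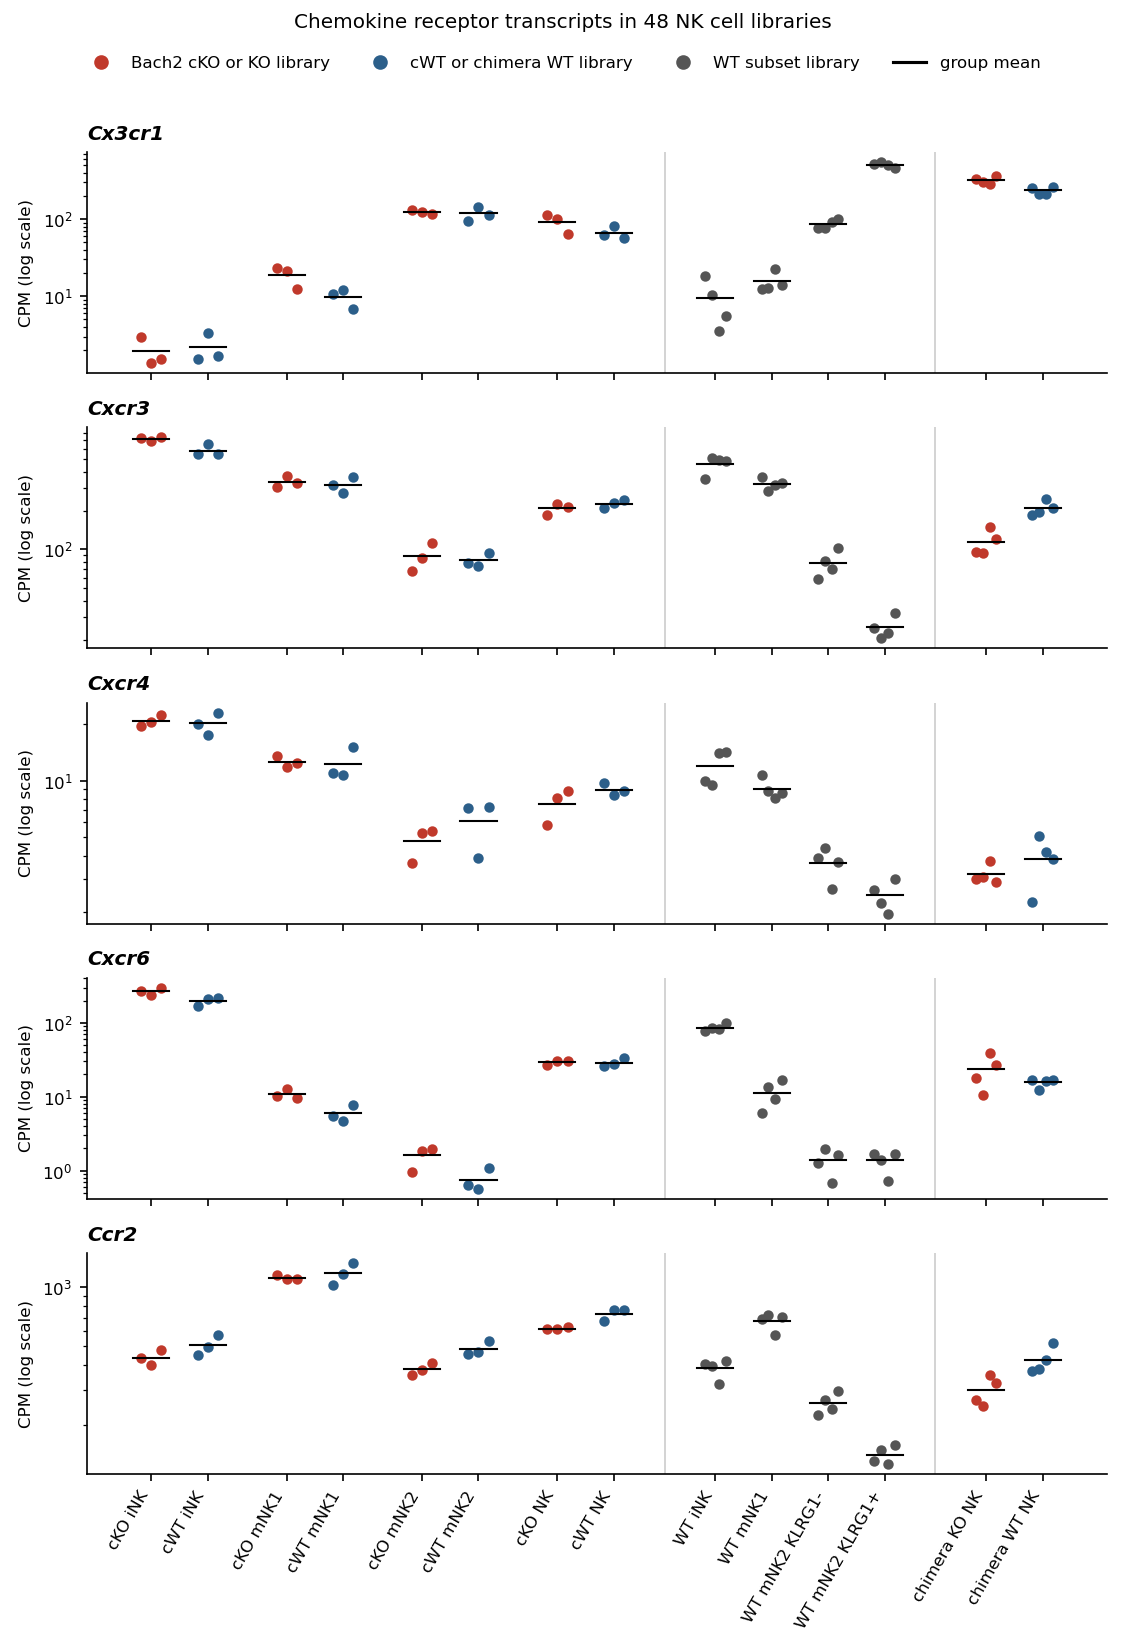
CPM on a log axis for each of the 5 receptors (panels) in every library (points) of the 14 groups, with group means as bars. Red points are cKO or KO libraries, blue points cWT or chimera WT libraries and grey points WT subset libraries. Cx3cr1 climbs and Cxcr3 and Cxcr4 descend from iNK to mNK2, Cxcr6 is highest in iNK, and Ccr2 is highest in mNK1.

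Along maturation the receptors changed places. Cx3cr1 rose and Cxcr3, Cxcr4 and Cxcr6 fell from iNK to mNK2 in both genotypes of the conditional experiment, while Ccr2 was highest at the middle stage. In cKO, all 5 passed in the step from iNK to mNK1 (22.7% of all genes passed) and in the step from mNK1 to mNK2 (21.3% of all genes). In cWT, all 5 again passed in both steps (18.5% and 20.2% of all genes). Among WT subsets, 3 of 5 passed between iNK and mNK1 (10.5% of all genes), 5 of 5 between mNK1 and KLRG1-negative mNK2 (7.29%) and 3 of 5 between the mNK2 populations (1.36%). The calls are edgeR quasi-likelihood tests with Benjamini-Hochberg adjustment over all genes tested, at an adjusted p under 0.05. The labelled stages carried the usual markers: Cd27 fell and Itgam rose in all 7 of these steps, and Klrg1 rose in all but the step from mNK1 to KLRG1-negative mNK2, where its log2 change was 0.24 ± 0.15 (SE). KLRG1 was itself used to sort the WT mNK2 cells. The gates of the stages are not given, so the products of Cd27 and Itgam may have been used in the sort too. These markers are therefore no independent check of the labels.

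**Figure D2:**
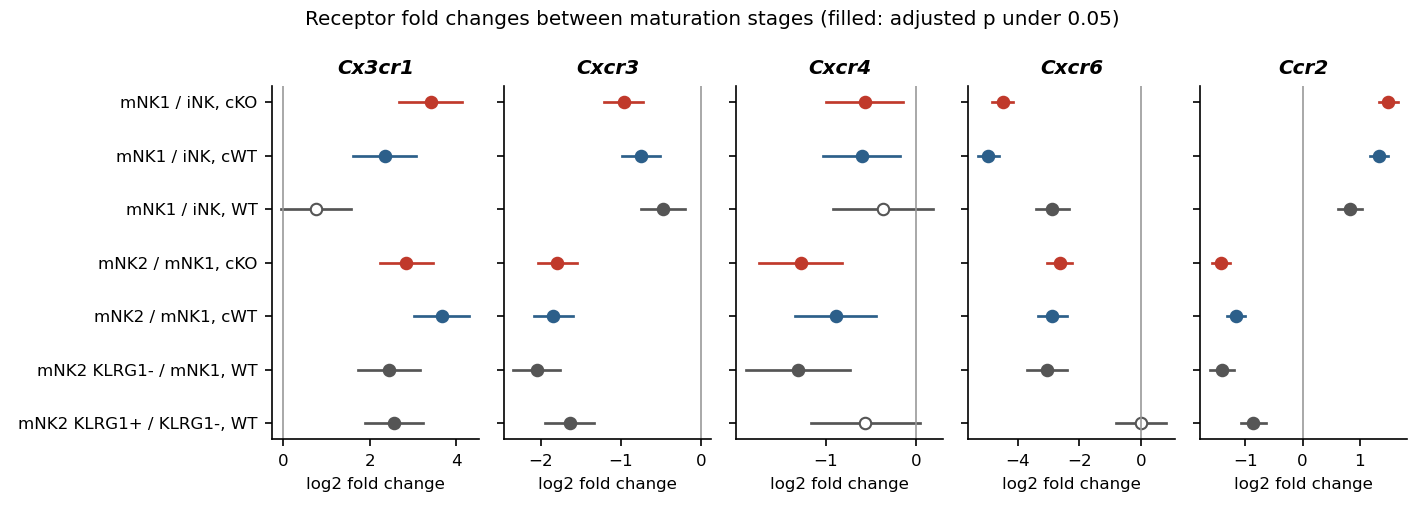
Log2 fold change (points) with its 95% interval (lines) of each receptor in the 7 steps between stages; filled points have an adjusted p under 0.05. Cx3cr1 lies right of zero in each step, Cxcr3 and Cxcr4 left of it, and Ccr2 is right of zero in the step to mNK1 and left of it afterwards.

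Cx3cr1 rose from mNK1 to mNK2, and it was the 1 receptor of the 5 to do so. In WT mice it stood at 517, 549, 507 and 453 CPM in KLRG1-positive mNK2, against 76.1, 77.7, 91.2 and 102 CPM in KLRG1-negative mNK2, a log2 rise of 2.56 ± 0.31 (SE, n = 4 libraries each, adjusted p = 0.000268). The populations did not overlap. KLRG1-negative mNK2 was in turn above mNK1, which had 12.6, 12.8, 22.6 and 14.1 CPM, by 2.45 ± 0.34 on the log2 scale (adjusted p = 0.000223). The mNK1 and iNK groups overlapped, since iNK had 18.1, 10.2, 3.53 and 5.53 CPM, and the log2 difference of 0.76 ± 0.37 did not pass (adjusted p = 0.243). Without iNK replicate 1, the highest of its group, that difference was 1.33 and passed (adjusted p = 0.0042). In the conditional experiment the same gene had 2.97, 1.36 and 1.53 CPM in cKO iNK, 22.9, 21.3 and 12.3 CPM in cKO mNK1 and 131, 122 and 117 CPM in cKO mNK2. In cWT it had 1.52, 3.33 and 1.67 CPM in iNK, 10.8, 11.9 and 6.93 CPM in mNK1 and 95.3, 145 and 114 CPM in mNK2. No stage overlapped another in either genotype. The log2 rise from mNK1 to mNK2 was 2.85 ± 0.29 in cKO and 3.66 ± 0.30 in cWT, and from iNK to mNK1 it was 3.41 ± 0.35 in cKO and 2.34 ± 0.35 in cWT.

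Cxcr6, the receptor for CXCL16, ran the other way and was highest in iNK. Its cKO libraries had 272, 237 and 297 CPM in iNK, 10.3, 12.8 and 9.48 CPM in mNK1 and 0.96, 1.85 and 1.98 CPM in mNK2. Its cWT libraries had 172, 209 and 217 CPM in iNK, 5.52, 4.65 and 7.77 CPM in mNK1 and 0.633, 0.565 and 1.07 CPM in mNK2. The mNK2 values rest on 9 to 27 counts per library. The log2 change from iNK to mNK1 was -4.48 ± 0.16 in cKO and -4.94 ± 0.17 in cWT, and the groups were far apart. The WT subsets repeated it with 6.01, 13.4, 9.3 and 16.8 CPM in mNK1, against 77.0, 85.7, 83.8 and 98.3 CPM in iNK (log2 change -2.88 ± 0.26). KLRG1-negative mNK2 was lower again than mNK1, at 1.26, 1.93, 0.687 and 1.60 CPM (log2 change -3.05 ± 0.32). KLRG1-positive mNK2 overlapped it with 1.70, 1.39, 0.717 and 1.67 CPM, and the log2 difference of -0.01 had a 95% interval of -0.81 to 0.78 where both groups held 7 to 23 counts per library.

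The iNK fraction also held the most T cell marker RNA, and Cxcr6 is a T cell gene as well. The summed level of 10 T cell markers was 410 to 438 CPM in cKO mNK1, against 2097 to 2530 CPM in cKO iNK, and 344 to 380 CPM in cWT mNK1, against 2064 to 2625 CPM in cWT iNK. All 10 markers fell from iNK to mNK1 in cKO and in cWT. Cd3e, the defining T cell marker, averaged 14.02 ± 2.32 CPM in cKO mNK1 and 535 ± 19.6 CPM in cKO iNK (SD, n = 3 each), and 8.71 ± 1.33 CPM in cWT mNK1 and 477 ± 12.7 CPM in cWT iNK. The summed level of 10 B cell markers was likewise 35.2 to 62.4 CPM over all mNK1 libraries of this experiment, against 540 to 1587 CPM over all iNK libraries. Markers of ILC1, innate lymphocytes that share many NK genes, summed to 273 to 369 CPM in cKO mNK1, against 1564 to 1654 CPM in cKO iNK, and to 265 to 306 CPM in cWT mNK1, against 1183 to 1249.7 CPM in cWT iNK, and 8 of 9 fell in each genotype. Dendritic cell markers summed to 417 to 567 CPM in cKO mNK1, against 1955 to 3166 CPM in cKO iNK, and to 255 to 459 CPM in cWT mNK1, against 1063 to 1891 CPM in cWT iNK, and 4 of 7 tested fell in each genotype. In the WT subsets 9 of 9 ILC1 markers and 1 of 5 dendritic cell markers tested fell in the same step. WT mNK1 had 290 to 313 CPM of T cell markers, against 1018 to 1272 CPM in WT iNK. The part of these cells in the iNK level of Cxcr6 or of any other receptor was not tested, and in sorted bulk samples fewer cells of a type and less RNA per cell cannot be told apart. Cxcr6 overlaps the gene Fyco1 on the opposite strand, and the strand used in counting is not given, so their reads may be shared. Fyco1 group means stayed between 10.7 and 31.99 CPM. In the GENCODE annotation the span of Cx3cr1 likewise overlaps 9 genes on both strands, among them Wdr48, Gorasp1, Ttc21a, Csrnp1 and Xirp1, and reads may be shared there too.

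Cxcr3, the receptor for interferon-induced chemokines, fell at each step. It had 728, 692 and 736 CPM in cKO iNK, 303, 368 and 324 CPM in cKO mNK1 and 68.4, 85.9 and 111 CPM in cKO mNK2. In cWT it had 550, 651 and 546 CPM in iNK, 317, 273 and 362 CPM in mNK1 and 78.4, 74.8 and 93.8 CPM in mNK2. Stages did not overlap in either genotype, and the log2 change from mNK1 to mNK2 was -1.79 ± 0.12 in cKO and -1.84 ± 0.12 in cWT. WT KLRG1-positive mNK2 had 24.7, 20.6, 22.8 and 32.4 CPM, against 59.1, 81.8, 70.5 and 103 CPM in KLRG1-negative mNK2 (log2 change -1.64 ± 0.15). KLRG1-negative mNK2 was also below mNK1, which had 361, 284, 317 and 327 CPM (log2 change -2.05 ± 0.14). The earlier step was small: mNK1 overlapped iNK, which had 353, 511, 488 and 481 CPM, with a log2 change of -0.48 ± 0.13 (adjusted p = 0.0197). That call was lost without iNK replicate 2, without iNK replicate 3 or without mNK1 replicate 2, where the adjusted p was 0.051 to 0.078.

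Cxcr4, the CXCL12 receptor that retains cells in the marrow, followed the direction of Cxcr3 at a low count. It had 19.4, 20.3 and 22.3 CPM in cKO iNK, 13.4, 11.8 and 12.5 CPM in cKO mNK1 and 3.63, 5.28 and 5.42 CPM in cKO mNK2. In cWT it had 20.04, 17.3 and 22.9 CPM in iNK, 10.98, 10.7 and 15.1 CPM in mNK1 and 7.15, 3.89 and 7.25 CPM in mNK2. The fall from mNK1 to mNK2 was -1.28 ± 0.22 in cKO and -0.89 ± 0.21 in cWT on the log2 scale. The cWT call was lost with only the groups compared in the fit (-0.85, adjusted p = 0.0502). The step from iNK to mNK1 passed narrowly, at -0.57 ± 0.20 in cKO (adjusted p = 0.046) and -0.60 ± 0.20 in cWT (adjusted p = 0.0412). It no longer passed without any 1 of the 6 cKO libraries of that step, or without 4 of the 6 cWT ones (iNK replicates 1 and 3, mNK1 replicates 1 and 2). For the WT subsets only the step to KLRG1-negative mNK2 passed for Cxcr4, with 3.87, 4.36, 2.65 and 3.71 CPM against 10.7, 8.80, 8.06 and 8.56 CPM in mNK1 (log2 change -1.31 ± 0.28). WT iNK had 9.9998, 9.42, 14.03 and 14.2 CPM and KLRG1-positive mNK2 had 2.63, 2.25, 1.97 and 3.01 CPM, each overlapping its neighbour.

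Ccr2, the monocyte chemoattractant receptor, peaked at mNK1. It had 436, 400 and 480 CPM in cKO iNK, 1145, 1100 and 1102 CPM in cKO mNK1 and 359, 379 and 409 CPM in cKO mNK2. In cWT it had 453, 496 and 572 CPM in iNK, 1027, 1170 and 1322 CPM in mNK1 and 458, 470 and 530 CPM in mNK2. Every mNK1 library was above every iNK and mNK2 library. The log2 rise from iNK to mNK1 was 1.499 ± 0.08 in cKO and 1.33 ± 0.08 in cWT, and the fall from mNK1 to mNK2 was -1.43 ± 0.08 in cKO and -1.17 ± 0.08 in cWT. WT subsets repeated the peak with 691, 725, 573 and 709 CPM in mNK1, against 405, 397, 322 and 424 CPM in iNK (log2 rise 0.83 ± 0.10). Ccr2 was then at 224, 266, 241 and 296 CPM in KLRG1-negative mNK2 and at 130, 149, 126 and 157 CPM in KLRG1-positive mNK2, with log2 changes of -1.41 ± 0.10 and -0.86 ± 0.10. The summed level of 10 monocyte and macrophage markers was 72.2 to 139 CPM in cKO iNK, 465 to 1157 CPM in cKO mNK1 and 184 to 194 CPM in cKO mNK2. In cWT it was 47.4 to 122 CPM in iNK, 285 to 784 CPM in mNK1 and 182 to 310 CPM in mNK2, so that mNK1 and mNK2 overlapped. From mNK1 to mNK2, 8 of the 10 markers fell in cKO and 3 in cWT. In the WT subsets this sum was 39.5 to 87.6 CPM in mNK1 and 7.40 to 24.3 CPM in iNK, with Cd14 and Fcgr1 at 0 in iNK. The part of monocytes in the peak was not tested. Reads of close relatives in the gene family may be counted for Ccr2.

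Across libraries, receptors of the early pattern moved together. The Pearson correlation of log2(CPM + 1) between Cxcr3 and Cxcr4 was 0.95 over the 24 conditional libraries and 0.96 over the 16 WT subset libraries. Between Cx3cr1 and Cxcr3 it was -0.91 and -0.98 over the same sets. Ccr2 kept no fixed relation to Cxcr3, at 0.24 and 0.88. These values mostly restate the differences between fractions, and libraries share their fraction, genotype and depth. Of 10327 genes, those with the most similar pattern in both sets were Gpx8 (0.99 and 0.95), Chit1 and Snx10 for Cx3cr1. For Cxcr3 they were Spint2 (0.99 and 0.98), Slamf6 and Cd27, and for Cxcr4 they were Ly6e (0.95 and 0.96), Rpl3 and Cxcr3. For Cxcr6 they were Il7r (0.98 and 0.98), Bmp7 and the CD3 subunit gene Cd3g, and for Ccr2 they were Car2 (0.90 and 0.90), Gcnt1 and Cbfa2t3.

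The chimeras ask what Bach2 loss does to receptor RNA in NK cells that matured beside WT cells in the same hosts. Cx3cr1 was higher and Cxcr3 and Ccr2 were lower in KO than in WT NK cells, so that 3 of the 5 receptors passed, where 5% of all genes did. Cx3cr1 had 334, 300, 281 and 360 CPM in KO, against 253, 212, 213 and 263 CPM in WT, without overlap, a log2 rise of 0.53 ± 0.09 (SE, n = 4 libraries each, adjusted p = 0.000353). Cxcr3 fell to 96.2, 94.6, 148 and 121 CPM in KO, against 184, 195, 245 and 208 CPM in WT, again without overlap, with a log2 change of -0.76 ± 0.12 (adjusted p = 0.000955). Ccr2 had 266, 250, 357 and 326 CPM in KO, against 376, 385, 425 and 520 CPM in WT, also apart, with a log2 change of -0.41 ± 0.09 (adjusted p = 0.00938). In the WT subsets, Cx3cr1 rose and Cxcr3 and Ccr2 fell from mNK1 to KLRG1-positive mNK2, in the same directions. Ccr2 rose by 0.83 in the earlier step from iNK to mNK1. Cxcr6 and Cxcr4 fell from mNK1 to KLRG1-negative mNK2, by log2 changes of -3.05 and -1.31. Their chimera differences were 0.67 and -0.15 and did not pass.

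Cxcr6 and Cxcr4 did not pass in the chimeras. Cxcr6 had 17.97, 10.6, 39.03 and 27.2 CPM in KO, against 16.9, 12.5, 16.1 and 17.03 CPM in WT. The KO libraries reached both below and above the WT range, and the log2 difference of 0.67 had a 95% interval of -0.02 to 1.37 (adjusted p = 0.343). Without KO replicate 2, the lowest, it was 0.90 and passed (adjusted p = 0.0194). Cxcr4 had 3.01, 3.08, 3.74 and 2.90 CPM in KO, against 2.28, 5.05, 4.18 and 3.84 CPM in WT, with an interval of -0.83 to 0.52.

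Maturation markers and markers of other cells moved with the chimera genotype. Klrg1 rose by 0.87 ± 0.07 and Itgam by 0.30 ± 0.08, and Cd27 fell by 0.81 on the log2 scale, so unfractionated KO cells differed from WT cells in the same markers that separate the stages. Whether the receptor differences go beyond a different mix of stages was not tested, since the chimera cells were not fractionated. B cell markers summed to 17.3 to 44.3 CPM in KO and 86.3 to 208 CPM in WT, with 8 of 8 tested lower. T cell markers summed to 176 to 238 CPM in KO and 265 to 362 CPM in WT, with 4 of 8 tested lower. Monocyte and macrophage markers summed to 94.97 to 210 CPM in KO and 35.0 to 49.4 CPM in WT, with 3 of 6 tested higher. Neutrophil markers summed to 123 to 588 CPM in KO and 4.08 to 60.95 CPM in WT, with 3 of 9 tested higher. At an unadjusted p under 0.05 there were 4 of these monocyte and macrophage markers and all 9 neutrophil markers, and DESeq2 called 4 and 6. Dendritic cell markers summed to 245 to 402 CPM in KO and 460 to 895 CPM in WT, with 0 of 5 tested called by edgeR, 3 at an unadjusted p under 0.05 and 3 called by DESeq2. Of all 10614 genes, 1613 reached that unadjusted level. ILC1 markers overlapped, at 97.3 to 153 CPM in KO and 129 to 204 CPM in WT, with 1 of 9 tested higher and 3 lower. Their part in the receptor differences was not tested. Ccr2 and Cx3cr1 are both carried by monocytes as well as by NK cells, and Ccr2 was lower and Cx3cr1 higher in KO. The part of monocytes in either difference was not tested.

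**Figure D3:**
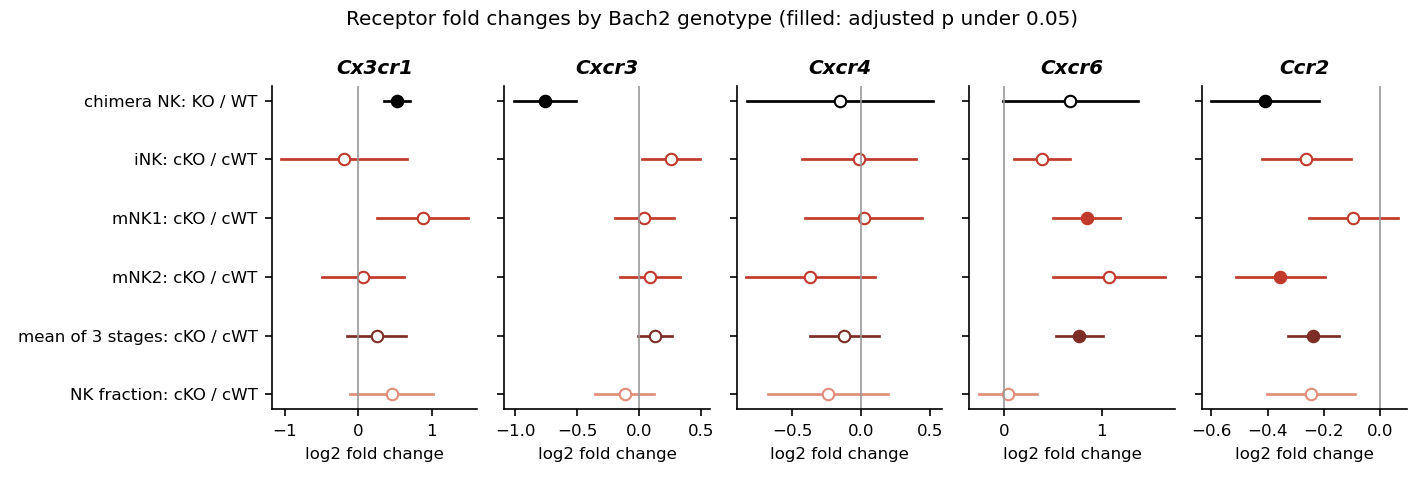
Log2 fold change (points) with its 95% interval (lines) by Bach2 genotype for each receptor, as KO over WT in the chimeras and cKO over cWT in each fraction and as the mean over iNK, mNK1 and mNK2; filled points have an adjusted p under 0.05. In the chimeras Cx3cr1 is filled at 0.53, Cxcr3 at -0.76 and Ccr2 at -0.41, and in the mean over stages Cxcr6 is filled at 0.77 and Ccr2 at -0.24.

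In the conditional experiment few receptor differences between genotypes passed. In the unfractionated NK libraries 0 of 5 receptors passed (0.571% of all genes did), and in iNK 0 of 5 (0.294%). In mNK1 1 of 5 passed, Cxcr6 (0.571% of all genes), and in mNK2 1 of 5, Ccr2 (0.261%). At an unadjusted p under 0.05 there was 1 receptor in NK (Ccr2) and 3 in iNK (Cxcr3, Cxcr6 and Ccr2), and DESeq2 called 0 in each of these fractions. There were 2 in mNK1 (Cx3cr1 and Cxcr6) and 2 in mNK2 (Cxcr6 and Ccr2) at that unadjusted level. Of all 12258 genes, 1104 reached it in NK, 954 in iNK, 1192 in mNK1 and 591 in mNK2.

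Cxcr6 was higher in cKO mNK1, at the values given with the stages, by 0.84 ± 0.16 on the log2 scale (adjusted p = 0.0128), with no overlap. Against cWT replicate 3 alone the difference was 0.54 and did not pass (adjusted p = 1), and against cWT replicates 1 and 2 alone it was 1.01 and passed (adjusted p = 0.00391). It was also lost without cWT replicate 1, cWT replicate 2 or cKO replicate 2 (adjusted p = 0.0775 to 0.128) and with only the groups compared in the fit (0.83, adjusted p = 0.323). In iNK the log2 difference was 0.38 ± 0.14 with the groups apart (adjusted p = 0.427), and in mNK2 it was 1.08 ± 0.28 with 1 cKO library inside the cWT range (adjusted p = 0.156). Without that library, cKO replicate 1, it was 1.34 and passed (adjusted p = 0.0379), and it also passed against cWT replicates 1 and 2 alone (1.36, adjusted p = 0.0367). In the unfractionated libraries, Cxcr6 had 26.9, 30.8 and 30.7 CPM in cKO, against 25.7, 27.4 and 33.6 CPM in cWT, with an interval of -0.26 to 0.33. Averaged over iNK, mNK1 and mNK2, a comparison added after the data had been seen, Cxcr6 was higher in cKO by 0.77 ± 0.12 (adjusted p = 0.000306) where 2.32% of all genes passed. The fit treats the fractions as independent libraries, and if fractions of 1 replicate number share an animal, which the labels do not say, the SE and p of such averages are too small. That average was 0.94 against cWT replicates 1 and 2 alone (adjusted p = 7.6e-05), but 0.48 and not past the threshold against cWT replicate 3 alone (adjusted p = 0.333). In mNK1 the summed T cell markers were 410 to 438 CPM in cKO and 344 to 380 CPM in cWT, the summed B cell markers 49.8 to 62.4 CPM in cKO and 35.2 to 39.97 CPM in cWT, and Klrg1 was higher in cKO by 0.86 ± 0.15. In iNK the T cell sums overlapped, the B cell sum was 919 to 1587 CPM in cKO and 540 to 794 CPM in cWT, and the 9 ILC1 markers summed to 1564 to 1654 CPM in cKO iNK, against 1183 to 1249.7 CPM in cWT iNK. Dendritic cell markers also stood apart in iNK, at 1955 to 3166 CPM in cKO and 1063 to 1891 CPM in cWT. In the average over the stages, 6 of 10 B cell markers, 3 of 7 dendritic cell markers and 1 of 9 ILC1 markers tested were higher in cKO. The part of any of these cells in the Cxcr6 difference was not tested, nor was that of the stage mix within a fraction.

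Ccr2 was lower in cKO mNK2 by a log2 difference of -0.35 ± 0.08 (adjusted p = 0.0444), without overlap. This call was lost without any 1 of the 6 libraries, where the adjusted p was 0.0773 to 0.394, and against cWT replicate 3 alone (-0.40, adjusted p = 0.576) or cWT replicates 1 and 2 alone (-0.31, adjusted p = 0.23). RLE scaling gave an adjusted p of 0.056. In the NK fraction it had 611, 612 and 625 CPM in cKO, against 671, 766 and 765 CPM in cWT, apart but not past the threshold, at -0.25 ± 0.08 (adjusted p = 0.212). Averaged over the stages Ccr2 was lower in cKO by a log2 difference of -0.24 ± 0.04 (adjusted p = 0.00296). It was -0.34 against cWT replicate 3 alone (adjusted p = 0.015), where no spread among controls enters, and -0.18 and not past the threshold against cWT replicates 1 and 2 alone (adjusted p = 0.0576). The sign was negative in all 4 cKO fractions and in the chimeras, but in mNK1 the difference was -0.09 with a 95% interval of -0.25 to 0.06. The unfractionated NK cells may include the same stages, so these signs need not be independent.

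Cx3cr1 and Cxcr3, which passed in the chimeras, did not pass in any cKO fraction. Cx3cr1 had 112, 98.8 and 64.5 CPM in cKO NK, against 61.6, 81.3 and 57.5 CPM in cWT NK, overlapping, with a log2 interval of -0.11 to 1.02. In mNK1 the groups were apart for Cx3cr1 and the log2 difference was 0.88 ± 0.29 (adjusted p = 0.312). Both Cx3cr1 and the monocyte marker sum were lowest in replicate 3 of both genotypes in mNK1, and the part of monocytes was not tested. In mNK2 the interval of Cx3cr1 was -0.50 to 0.62. Cxcr3 had 183, 225 and 214 CPM in cKO NK, against 211, 227 and 241 CPM in cWT NK, with an interval of -0.36 to 0.12, which does not reach the chimera value of -0.76. In iNK the cKO libraries were all above the cWT ones for Cxcr3, at a log2 difference of 0.26 ± 0.11 (adjusted p = 0.595). Cxcr4 had 5.801, 8.09 and 8.76 CPM in cKO NK, against 9.69, 8.34 and 8.78 CPM in cWT NK, and its intervals held zero in every fraction. The chimeras and the conditional mice differ in allele, host and experiment, and the difference between their effects was not tested.

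Whether the genotype effect changed between stages was tested as an interaction. For the change from iNK to mNK1, 0 of 5 receptors passed (0% of all genes), and for the change from mNK1 to mNK2 also 0 of 5 (0.00816% of all genes, or 1 gene). At an unadjusted p under 0.05 there were 2 and 1 receptors, and DESeq2 called 0 and 0. Over all genes an unadjusted p under 0.05 was reached by 519 and 440 genes, and DESeq2 called 4 and 21. The interaction intervals were wide for Cx3cr1, from 0.0044 to 2.12 and from -1.65 to 0.02.

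**Figure D4:**
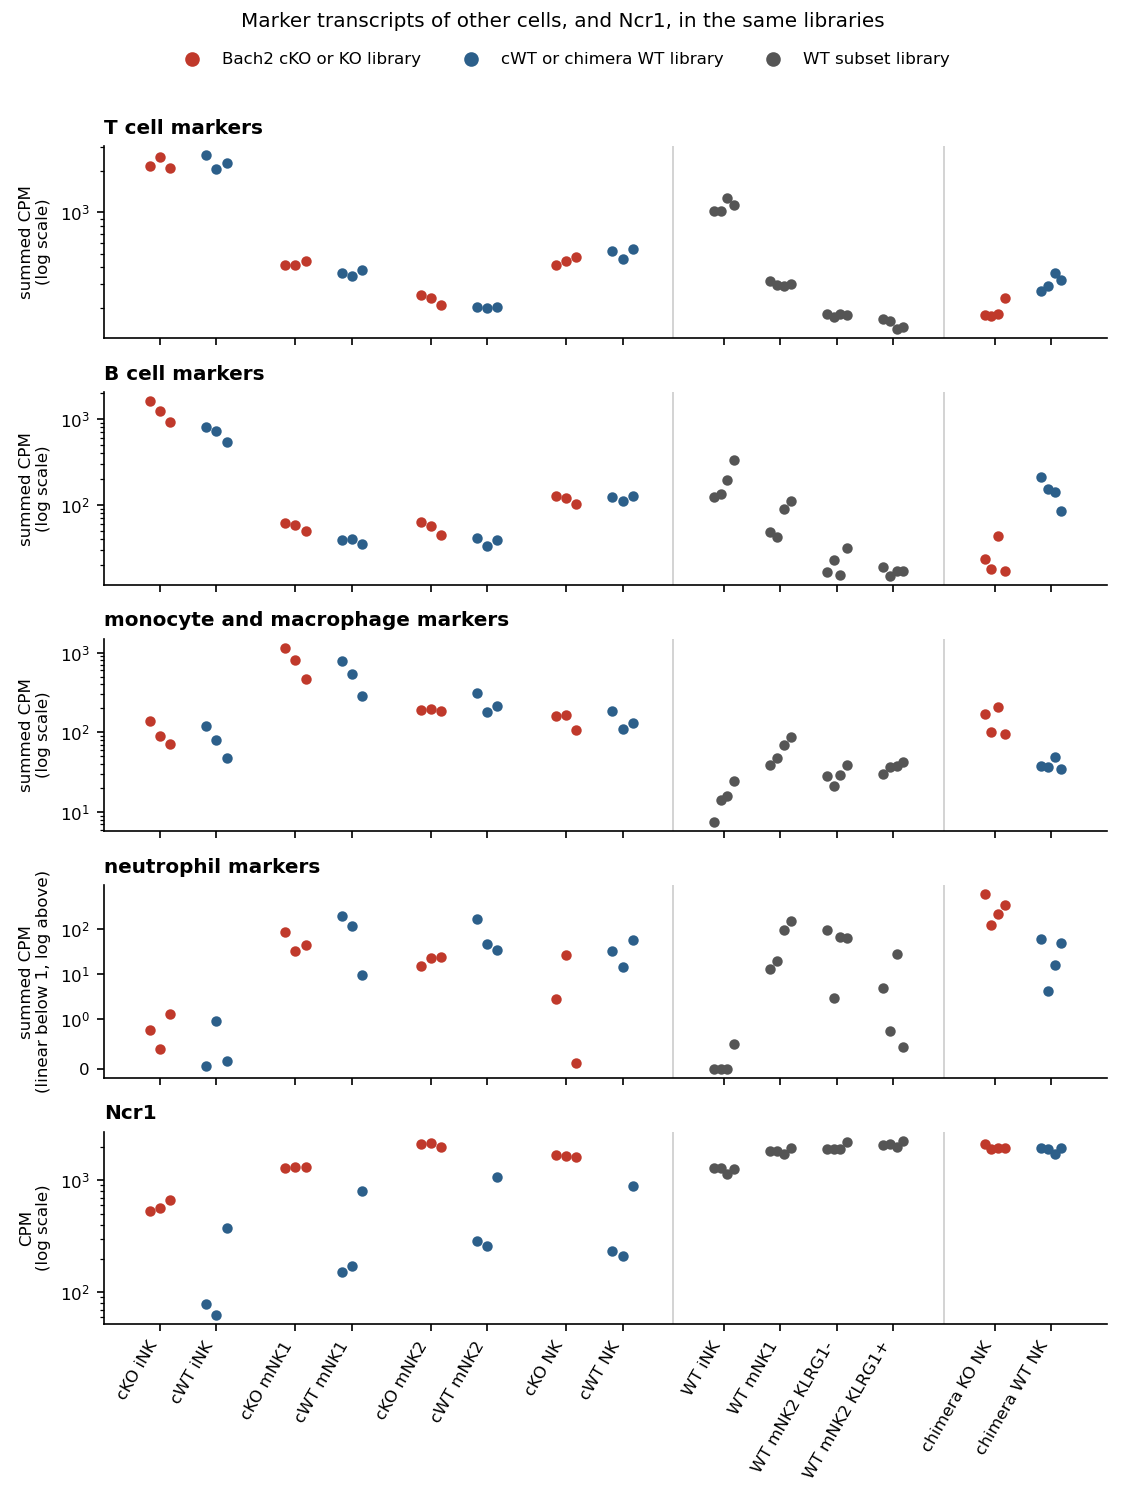
Summed CPM of the markers of 4 other cell types, and CPM of Ncr1, in every library (points; red cKO or KO, blue cWT or chimera WT, grey WT subsets), on log axes except the neutrophil panel, which is linear below 1. T and B cell markers are highest in the iNK libraries, and Ncr1 is lower in every cWT library than in the cKO libraries of its fraction, lowest in replicates 1 and 2.

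The family's other members were read from a list of 17 further chemokine receptors. In the conditional experiment 13 of them passed the filter on low counts. In mNK1 over iNK, 3 rose and 8 fell in cKO and the same counts held in cWT, with medians of -2.41 and -3.64 on the log2 scale against 0.01 and 0.02 for all genes. Of all genes, 22.7% were called in this step in cKO and 18.5% in cWT. Ccr7, the homing receptor for lymph nodes, averaged 8.09 ± 4.06 CPM in cKO mNK1 and 152 ± 44.6 CPM in cKO iNK (SD, n = 3 each), with log2 changes of -4.09 ± 0.35 in cKO and -3.92 ± 0.35 in cWT. Cxcr5, the B cell follicle receptor, had log2 changes of -3.81 ± 0.35 in cKO and -3.996 ± 0.37 in cWT. Both are also genes of B or naive T cells, whose markers were highest in iNK. Ccrl2, a receptor-like gene of the family, rose by 0.57 ± 0.12 in cKO and by 0.66 ± 0.12 in cWT on the log2 scale. Cxcr2, a neutrophil receptor, rose by 1.98 ± 0.34 in cKO and by 2.01 ± 0.35 in cWT. The neutrophil marker sum was 32.9 to 86.6 CPM in cKO mNK1 and 0.390 to 1.27 CPM in cKO iNK, and the part of neutrophils was not tested. From mNK1 to mNK2, 5 fell and 0 rose in cKO (21.3% of all genes were called) and 4 fell and 0 rose in cWT (20.2%). In the WT subsets only 5 passed the filter, with 1 higher and 1 lower in mNK1 over iNK, 1 lower in the next step and 0 changed between the mNK2 populations. The shares of all genes called in these steps were 10.5%, 7.29% and 1.36%.

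**Figure D5:**
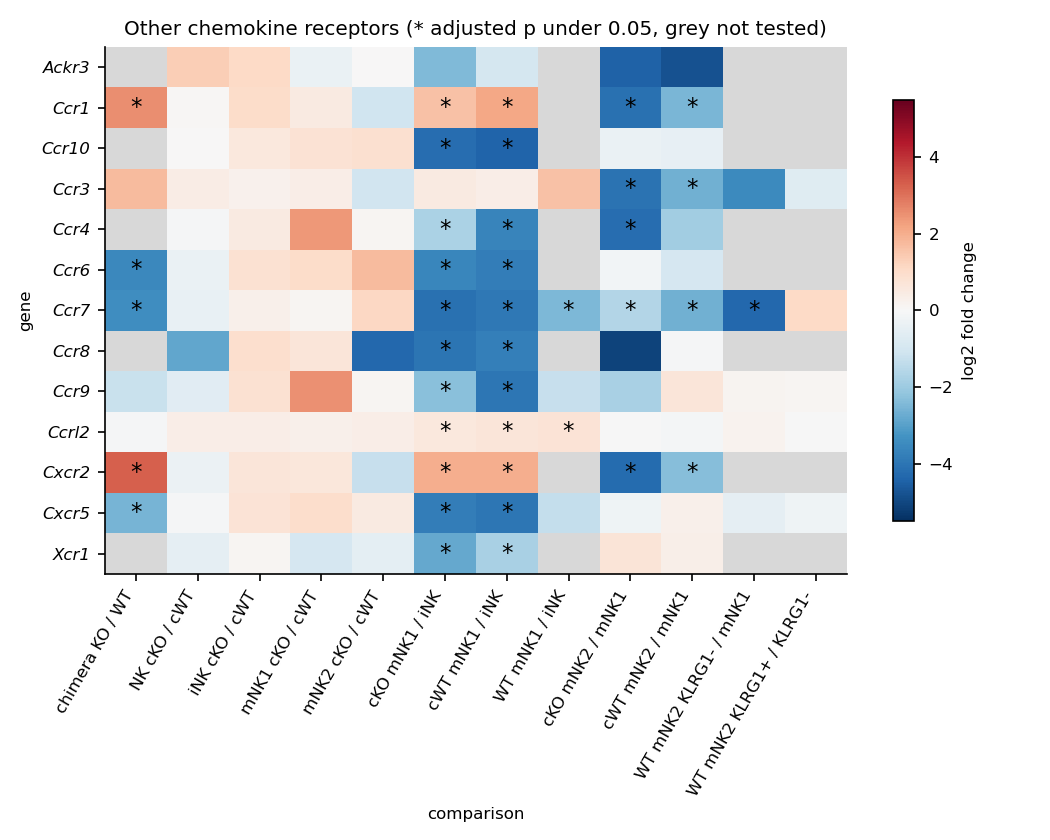
Log2 fold changes (colour) of the other chemokine receptors that were tested (rows) in 12 comparisons (columns); asterisks mark an adjusted p under 0.05 and grey cells were not tested. The columns of cKO over cWT hold no asterisk, while the chimera column holds 5 and the columns of mNK1 over iNK in cKO and cWT hold 11 each.

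By genotype, 0 of the 13 other receptors passed in any of the 4 cKO fractions with edgeR. Of all genes, 0.571% passed in NK, 0.294% in iNK, 0.571% in mNK1 and 0.261% in mNK2. At an unadjusted p under 0.05 there were 2 in NK, 3 in iNK, 4 in mNK1 and 5 in mNK2, and DESeq2 called 0, 0, 1 and 1. Of all 12258 genes, 1104, 954, 1192 and 591 reached that unadjusted level in the same fractions. Averaged over the stages, Ccr6 (1.19 ± 0.32, adjusted p = 0.0497) and Ccrl2 (0.33 ± 0.07, adjusted p = 0.0114), were higher in cKO, and both calls were lost against either subset of the cWT replicates. In the chimeras 8 passed the filter, of which 2 were higher and 3 lower in KO, where 5% of all genes were called. Ccr1, an inflammatory receptor of myeloid cells, averaged 8.15 ± 3.28 CPM in KO and 1.503 ± 0.42 CPM in WT (SD, n = 4 each), and Cxcr2 averaged 11.9 ± 5.13 CPM in KO and 1.35 ± 0.68 CPM in WT. Their log2 rises were 2.54 ± 0.37 and 3.27 ± 0.40, beside the higher neutrophil and monocyte marker sums given above. Ccr7, Cxcr5 and Ccr6, a receptor of B cells and some T cells, were lower in KO by log2 changes of -3.43 ± 0.38, -2.55 ± 0.44 and -3.53 ± 0.74, beside the lower B cell marker sum. The part of those cells was not tested.

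Of 28 genes that act behind the receptors (G proteins, kinases, arrestins and regulators of G protein signalling), Rgs1, which shuts off signalling by inhibitory G proteins, was the 1 gene that passed in each cKO fraction. It averaged 931 ± 17.7 CPM in cKO NK and 568 ± 15.5 CPM in cWT NK (SD, n = 3 each). The log2 rise was 0.72 ± 0.09 in NK, 0.42 ± 0.09 in iNK, 0.77 ± 0.09 in mNK1 and 0.74 ± 0.09 in mNK2. In the same fractions 0.571%, 0.294%, 0.571% and 0.261% of all genes passed. Against cWT replicate 3 alone the rises were 0.75, 0.46, 0.84 and 0.78 and none passed (adjusted p = 0.126, 0.585, 0.062 and 0.194). Against cWT replicates 1 and 2 alone they were 0.698, 0.39, 0.73 and 0.74 and passed in NK, mNK1 and mNK2 but not in iNK (adjusted p = 0.00971, 0.531, 0.00459 and 0.00483), so that the iNK call was lost against either subset. In the chimeras Rgs1 was not called. There 4 of the 28 were higher in KO and 2 lower, where 5% of all genes passed. Among them were Rgs18, higher by 1.14 ± 0.24, and Rgs2, higher by 0.53 ± 0.12. The receptor kinase gene Grk6 was lower at -0.55 ± 0.11, and the guanine exchange partner gene Elmo1 at -0.26 ± 0.07. Rap1b, a small GTPase gene of integrin activation, rose in each of the 7 stage steps, for example by 0.65 ± 0.08 in KLRG1-positive over KLRG1-negative mNK2. Of 10 ligand genes of the 5 receptors, 3 passed the filter in the conditional experiment and 1 in each of the others. Cxcl10, a ligand of CXCR3, was lower in mNK2 than in mNK1 by log2 changes of -1.71 ± 0.59 in cKO and -2.31 ± 0.64 in cWT. Between genotypes, no ligand passed in a fraction, in the average over stages or in the chimeras with edgeR or DESeq2, nor at an unadjusted p under 0.05. For the change of the genotype effect from mNK1 to mNK2, 1 ligand reached that unadjusted level, and edgeR and DESeq2 called 0.

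Of the 5 receptors, 3 lie on chromosome 9 with many of their relatives. Between Cxcr6 and Ccr2 the RefSeq annotation of GRCm38.p6 places Xcr1, Ccr1, Ccr1l1 and Ccr3. Cx3cr1 lies beside Ccr8. Neighbours did not share a direction in the cWT step from iNK to mNK1. Cxcr6 fell by 4.94 and Xcr1 by 1.78, while Ccr1 rose by 2.11 ± 0.38 and Ccr2 by 1.33 ± 0.08 on the log2 scale. In that step 4 of 7 dendritic cell markers tested fell, and 3 of 10 monocyte and 7 of 8 neutrophil markers tested rose. The part of other cells in these changes was not tested.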

How the data were processed

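The submitters' processing notes name FastQC, the aligner STAR 2.5.0 and the build mm9. Per the labels' protocols, RNA was purified with a Qiagen kit and libraries followed Clontech SMARTer chemistry. The authors deposited raw read counts per gene symbol. The counting program, strand setting and annotation are not given in the sources used here.

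Each experiment was fitted apart with edgeR 4.0.16 (R 4.3.3): filterByExpr (12258, 11051 and 10614 genes in the conditional, WT subset and chimera experiments), TMM factors, the robust quasi-likelihood F test over all groups, and Benjamini-Hochberg adjustment over all genes tested, with a threshold of 0.05. Errors of fold changes are SE, and intervals are 95%. Floors cover counting error only. On simulated counts with 200 changed genes among 12258, the test recovered 82.1% of 2-fold changes for cKO against cWT NK, with 6 false calls. It recovered 49.3% of 1.5-fold changes there, so smaller receptor differences can be missed. The changed genes were drawn only above a minimum mean CPM, so these rates do not cover low counts such as those of Cxcr6 in mNK2. The 60 pairs of libraries within groups held 0 identical pairs. The labels do not say that libraries of a group are separate animals, so p-values measure the spread between these samples.

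Alternatives were DESeq2 1.42.0, RLE factors, no low-count filter, no Rn45s, fits restricted to the compared groups, leave-one-out fits, and the replicate number as a block. The mean over stages and the fits against cWT replicate 3 alone or cWT replicates 1 and 2 alone were added after seeing the data. Members and gene lists were chosen with earlier results of these data known. The genes named are the 5 receptors, up to 2 higher and 2 lower called members of a list with the smallest p, defining markers, and the 3 genes of most similar pattern per receptor (the highest lower of the correlations in the conditional and WT subset libraries, without predicted genes). Outside this rule, Xcr1 and Fyco1 were named as neighbours, Ncr1 as the gene that carries Cre, and Rap1b, Ccr6, Ccrl2 and, in the cWT step, Ccr1 after their values were seen. One listed receptor gene is not reported here and is left out of the list's counts.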

Additional observations from a re-analysis of the deposited data

Results flagged for a closer look

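One receptor value stood apart from its group. Cx3cr1 was at 22.6 CPM in WT mNK1 replicate 3, against 12.6, 12.8 and 14.1 CPM in the other mNK1 libraries of WT mice, and its gap was 0.845 of the group's range, above the critical value of 0.829 for 4 samples. It was the 1 such value in the 30 groups of 4 libraries examined, where chance gives about 1 in 20. The difference of mNK1 from iNK, in which this library stands, did not pass with or without it.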

How the results depend on the processing

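The limits fall mainly on the conditional genotype comparisons, where Ncr1 splits the controls, and on Cxcr4 and on Cxcr6 in mNK2, which rest on few counts. No paired order was established: no comparison had every same-number correlation over 0.1. In the chimeras (0.0933 to 0.136) and in the steps to KLRG1-negative and to KLRG1-positive mNK2, 8 of 8 libraries correlated best with their own number, which is a hint from the data only. Ncr1 in cWT, low in replicates 1 and 2 and higher in replicate 3 of every fraction, is another such hint. If a number marks the same animal across fractions, the tests between stages treat fractions of that animal as independent. With the replicate block, genes called numbered 742 in the chimeras, 67 in iNK, 62 in mNK2 and 16 for the change of the genotype effect from mNK1 to mNK2. Receptors called with the replicate block were 2 in mNK1, where Cx3cr1 at 0.88 joined Cxcr6 (adjusted p = 0.044), and 2 in mNK2, where Cxcr6 at 1.07 joined Ccr2 (adjusted p = 0.0474). The block changed no other receptor call.

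Between cKO and cWT, 70 genes were called in NK, 36 in iNK, 70 in mNK1 and 32 in mNK2. DESeq2 called 128, 82, 127 and 64. Fitting only the groups compared gave 11, 6 and 14 in NK, iNK and mNK1, and 0 receptors in mNK1 and in mNK2. RLE factors gave 0 receptors in mNK2. Against cWT replicate 3 alone the counts were 7, 0, 7 and 8 genes, with 0 receptors in mNK1 and in mNK2, and against cWT replicates 1 and 2 alone they were 35, 6 and 39 in NK, iNK and mNK1. These fits have fewer control libraries. The mean over stages called 284 genes, against 65 with cWT replicate 3 alone and 188 with cWT replicates 1 and 2 alone, and 1 receptor with each in place of 2. DESeq2 called 4 and 21 genes for the interactions and 254, in place of 150, between the mNK2 populations of WT mice. Fitting only the groups compared called 0 genes for the second interaction. The cause of these differences between fits was not tested.

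Leaving out single libraries gave 36 to 63 genes in NK, 5 to 25 in iNK, 26 to 91 in mNK1 and 18 to 26 in mNK2, 0 to 1 receptors in mNK1 and in mNK2, and 0 to 2 and 0 to 17 genes for the interactions. The receptor count ranged from 3 to 4 in the chimeras. Of the called receptor changes, 22 leave-one-out and 9 other results lost the call, and of those not called 3 and 3 gained it.

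A sign turned only for differences that were not called. For Cxcr6 in cKO NK it was -0.031, -0.039 and -0.021 without cWT replicate 1, cWT replicate 2 or cKO replicate 3 (leave-one-out range -0.039 to 0.14) and -0.16 against cWT replicate 3 alone. In iNK, Cx3cr1 was 0.16 without cWT replicate 2 (range -0.62 to 0.16) and 0.17 against cWT replicate 3 alone. Cxcr4 in iNK was 0.025 and 0.073 without cKO replicate 1 or cWT replicate 3 (range -0.17 to 0.073) and 0.073 against cWT replicates 1 and 2 alone. In mNK1, Cxcr4 was -0.034, -0.050, -0.018 and -0.0096 without cWT replicate 1, cWT replicate 2, cKO replicate 1 or cKO replicate 3 (range -0.050 to 0.14) and -0.21 against cWT replicate 3 alone. Cxcr3 in mNK1 was -0.036 and -0.023 without cWT or cKO replicate 2 (range -0.036 to 0.11) and -0.069 against cWT replicate 3 alone. In mNK2, Cx3cr1 was -0.027 without cWT replicate 1 (range -0.027 to 0.22). Cxcr3 in mNK2 was -0.065 without cKO replicate 3 (range -0.065 to 0.24) and -0.018 against cWT replicate 3 alone. The leave-one-out range of the first interaction for Cxcr4 was -0.062 to 0.18, and that of the second for Cxcr3 was -0.10 to 0.18. For Cxcr4 in the chimeras it was -0.31 to 0.0051. Cxcr6 in KLRG1-positive over KLRG1-negative mNK2 was 0.026 with the replicate block, 0.013 with only the groups compared and -0.23 to 0.23 over the left-out libraries.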
